A study of Mus musculus with 3 samples.

Results

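DNA replication and S phase genes were examined as a group of 37 genes in single cells of mouse bone marrow. The group was taken by symbol, and all 37 symbols were found, each in 1 row, among the 32285 genes of the count tables. It holds the Mcm2 to Mcm7 helicase and genes for origin licensing and firing, DNA synthesis, nucleotide supply, repair and checkpoint, chromatin assembly and S phase regulation. Symbols of this kind are widely used to score cells for S phase.

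The cells came from 3 libraries with 1 library per group. LSK cells are by convention lineage-negative marrow cells that carry Sca-1 and Kit, the fraction that holds the stem cells. LK cells are by convention lineage-negative cells that carry Kit, mostly committed progenitors. TBM stands for total bone marrow. Per the labels, the marrow was taken from femora, tibiae, hips and spines of mice whose number, strain, sex and age are not stated, and no genotype or treatment is given. The same protocol, given for all 3 libraries, describes an enrichment of lineage-negative cells with antibodies against Ter119, Ly-6C, Ly-6G, CD8a, CD11b, CD45R and CD5 and then a sort. It does not say whether TBM was taken before that enrichment or whether Sca-1 positive cells were removed from LK.

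Before a cell copies its DNA, Cdc6 helps load the Mcm2 to Mcm7 ring onto origins, and Cdc45 and the GINS complex later turn that ring into the working helicase. Polymerases, the Pcna clamp and its loaders then copy the strands, ribonucleotide reductase supplies deoxynucleotides, and new DNA is packed with histones. Many of these genes are switched on together by E2F factors as cells leave G1. In adult marrow, most stem cells rest, early progenitors, erythroblasts and B cell precursors divide, and mature neutrophils do not.

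After filtering, 1067 LSK, 3461 LK and 4217 TBM cells were kept, of 1091, 3560 and 4317 deposited barcodes. Cell numbers given in the protocol are 1070 for LSK, 3441 for LK and 3984 for TBM. The kept cells held 11836820 UMIs in LSK, 49936180 in LK and 21958139 in TBM, with a median per cell of 9688, 13683 and 3347. Each cell was therefore thinned to 2000 UMIs, and shallower cells were left out. No LSK cell was lost by this, against 9 LK cells and 1288 TBM cells (30.5% of that library). Levels are counts per 1000000 UMIs on this scale (depth-matched CPM), or UMIs of the group per cell in 2000 UMIs. Since each group is 1 library, the groups could not be tested against each other and no p-value is given. Brackets hold exact 95% intervals, Poisson for levels, conditional binomial for log2 ratios and Clopper-Pearson for shares, and all of them cover counting error only. Marker levels matched the labels where they could be checked. Before thinning, Kit was at 81.3 CPM in LSK, 34.4 CPM in LK and 7.61 CPM in TBM. Ly6a, which encodes Sca-1, was at 100.96 CPM in LSK, 7.75 CPM in LK and 30.9 CPM in TBM. Globins took 90882 CPM and S100a8 plus S100a9 took 118457 CPM in TBM, and at most 51.1 and 38.9 CPM in the sorted libraries. Of 14 marker genes of T, dendritic, stromal and plasma cells, 10 were at or below 1.27 CPM in both sorted libraries. The exceptions were Flt3, Nkg7, and the plasma cell genes Jchain, at 178 CPM in LSK and 0.120 CPM in LK, and Igha, at 715 CPM in LSK and 0.200 CPM in LK, whose part in the results was not tested. Libraries shared 6 barcodes between LSK and LK, 6 between LSK and TBM and 26 between LK and TBM.

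Summed over the 37 genes and over cells of all depths, LK cells carried the most replication transcripts, LSK cells fewer and TBM cells the fewest. Among cells of like depth this order did not always hold, as given below. The mean per cell was 6.68 (6.53 to 6.84) in LSK, 8.10 (8.01 to 8.20) in LK and 4.21 (4.13 to 4.28) in TBM. As log2 ratios, LSK over LK was -0.28 (-0.32 to -0.24), LK over TBM was 0.95 (0.92 to 0.98) and LSK over TBM was 0.67 (0.63 to 0.71). The LSK to LK difference kept its sign when globin, S100a8, S100a9, immunoglobulin, ribosomal protein and mitochondrial genes were left out of the totals (-0.31). On that scale, here called the reduced scale, LK over TBM was smaller at 0.30 and LSK over TBM was -0.012 (-0.047 to 0.022). That scale also keeps other cells, 1066 of LSK, 3436 of LK and 2038 of TBM, where the scale with all genes kept 1067, 3452 and 2929, so the change of totals and the change of cells cannot be told apart. Relative to the median log2 ratio of all genes, which was 0.21, 0.45 and 0.65 in these comparisons, the sums stood at -0.49, 0.49 and 0.016. Unthinned, the 37 genes made up 3957 CPM in LSK, 4409.9 CPM in LK and 2710.3 CPM in TBM.

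Single cells differed more widely than these means. In LSK the median cell held 5 UMIs of the group and 28.3% of cells (25.6 to 31.1) held at least 10. In LK the median was 8 and 37.1% (35.5 to 38.8) reached 10. In TBM the median was 1 and 15.2% (13.9 to 16.6) did. Cells without a single UMI of the group made up 7.31% of LSK, 1.42% of LK and 33.2% of TBM. The richest cells were those of TBM, with up to 47 UMIs, while the maximum was 29 for LSK and 26 for LK. Over cells, the variance was 5.17 times the mean in LSK, 3.001 times in LK and 11.6 times in TBM.

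**Figure D1:**
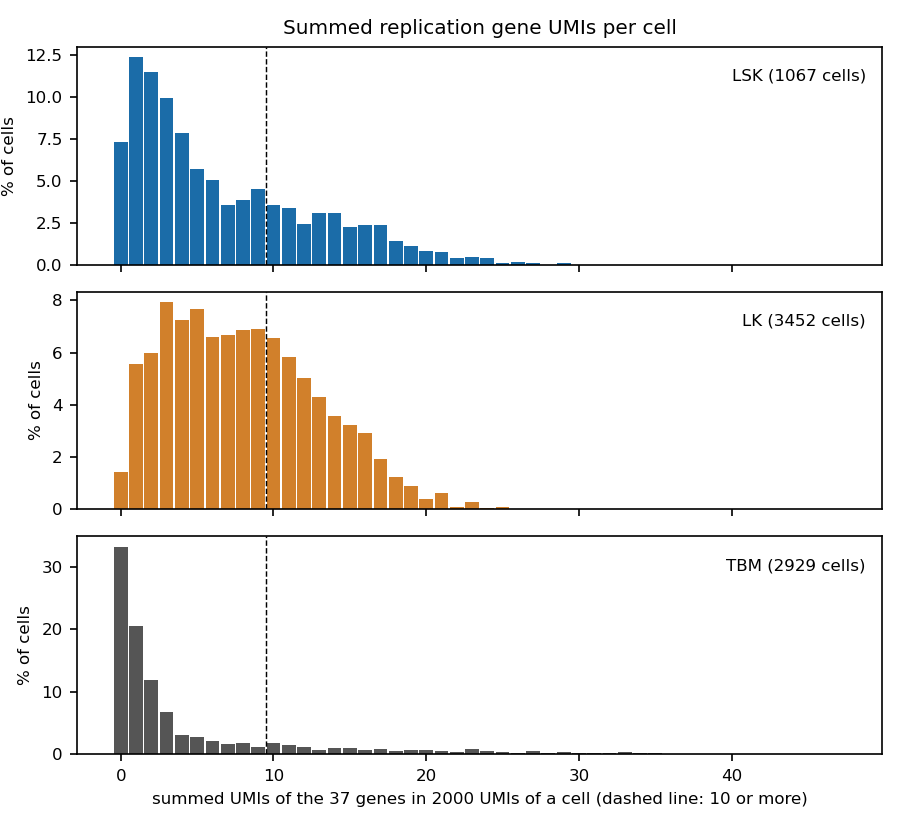
Share of cells in % (vertical axis) by the summed UMIs of the 37 genes in 2000 UMIs of a cell (horizontal axis), in LSK, LK and TBM from top to bottom, with a dashed line at 10 or more. LK cells form 1 broad hill around a median of 8, while TBM piles up at 0 with a tail that reaches 47.

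Within a library, cells rich in helicase transcripts were rich in the other members as well. Among LSK cells without any Mcm2 to Mcm7 UMI, the other 31 genes summed to 1.81 UMIs per cell, and among cells with 4 or more helicase UMIs to 8.33. The same pair of values was 3.03 and 7.50 in LK, and 1.39 and 16.8 in TBM. Deeper cells carried more even after thinning. With the cells of a library ranked by depth and divided into 4 equal parts, from shallow to deep, the mean was 2.33, 3.82, 9.05 and 11.5 in LSK, 4.998, 8.81, 9.03 and 9.57 in LK, and 1.25, 2.27, 5.77 and 7.53 in TBM. The median depths of these parts were 6479, 8532, 11425 and 16436 UMIs in LSK and 5987, 10706, 16849 and 23076 in LK. In TBM they were 2392, 4301.5, 6677.5 and 12381.5. At like depth the order of libraries was not fixed. LSK was below LK in the shallowest parts, but above it at 16436 against 16849 UMIs. TBM at 6677.5 UMIs was above LSK at 6479 and LK at 5987. At 12381.5 UMIs, however, TBM with 7.53 was below LSK at 11425 UMIs with 9.05 and LK at 10706 UMIs with 8.81. Intervals did not overlap in any of these pairs. Apart from the shallowest parts of LSK and LK, these pairs set different parts of the libraries against each other. They are alike in median depth only, so they do not rank whole libraries at like depth.

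Member by member, LSK and LK cells were close. Of the 37 genes, 0 were at least 2-fold higher and 1 was at least 2-fold lower in LSK than in LK. Among all genes counted, 13.8% were at least 2-fold higher and 3.75% at least 2-fold lower. The median member ratio was -0.27 and 32 of 37 ratios were below 0. All 37 genes passed the minimum of 20 UMIs over both libraries in each library comparison. Against TBM the members spread out. LK over TBM had 20 members at least 2-fold higher and 1 at least 2-fold lower, beside 30.5% and 15.3% of all genes, with a median of 1.21, so on this scale the upward share was above that of all genes. On the reduced scale, and likewise relative to the median of all genes, 13 members were past 2-fold in either direction. The share of all genes is not given on these scales, so an excess of members there cannot be judged. LSK over TBM had 16 and 1, beside 36.3% and 13.2% of all genes, with a median of 0.80, so the share of members past 2-fold upward was near that of all genes. These comparisons share libraries and are not independent of each other. On the reduced scale the positive ratios numbered 27 of 37 in LK over TBM, against 33 with all genes in the totals, and 22 of 37 in LSK over TBM, against 31. In LK over TBM the genes below 0 on that scale alone were Blm, Cdc6, Clspn, Fen1, Gmnn and Rad51ap1, at -0.062, -0.42, -0.37, -0.013, -0.12 and -0.045.

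**Figure D2:**
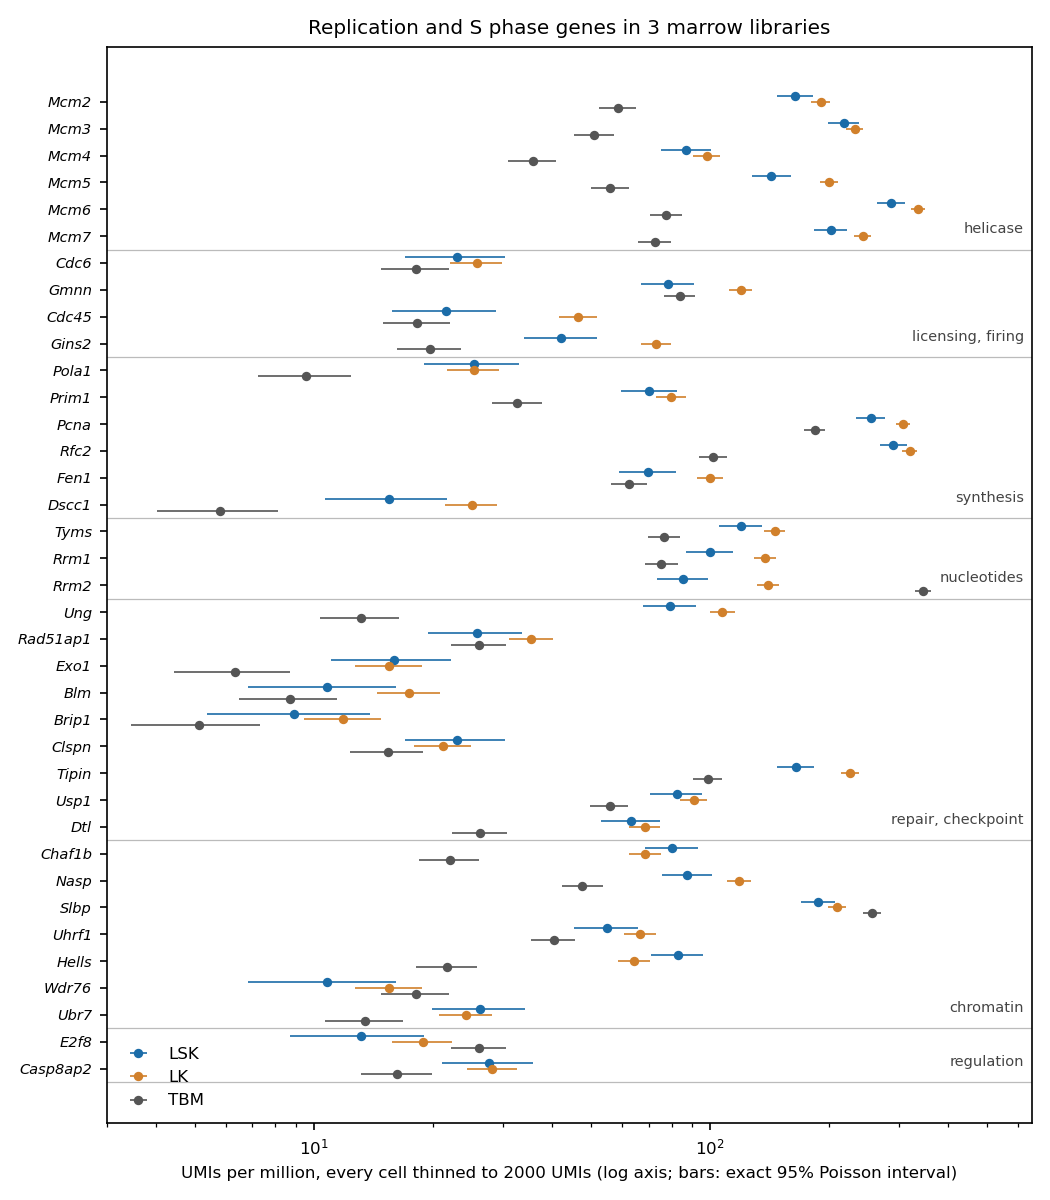
Level of each of the 37 genes in LSK, LK and TBM cells in counts per 1000000 UMIs after thinning every cell to 2000 UMIs (log axis), grouped by role, with bars for exact 95% Poisson intervals. The helicase genes of TBM lie left of those of both sorted libraries, while Rrm2 and Slbp lie to the right.

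Since many of the members are known E2F targets, promoter windows from 250 bases before to 50 after the start site were taken from RefSeq (build GRCm38.p6), which held 29 of the 37 genes. E2F letters were searched on both strands as TTTGGCGC, TTTCCCGC, TTTCGCGC or TTTGCCGC. They were present in 12 of 29 members (41.4%), against 2.605% of the 27025 genes with a window. Bases upstream of the start site are shown for 4 genes that hold them, the helicase genes Mcm5 and Mcm6, the loader Cdc6 and the polymerase gene Pola1, and for E2f8 and Rrm2, the members with the lowest ratios of LK over TBM, whose windows hold none. These are examples, and whether the letters go with that ratio was not tested. The window of Mcm2, with a higher ratio, also holds none, while that of Clspn, with a lower one, holds them. Capitals mark the E2F letters, and matches on opposite strands that overlap run together.
Mcm5 (chr8:75109349-75109508, plus strand): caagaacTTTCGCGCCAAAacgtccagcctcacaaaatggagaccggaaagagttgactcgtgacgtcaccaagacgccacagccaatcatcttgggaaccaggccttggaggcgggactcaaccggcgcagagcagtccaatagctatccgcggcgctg
Mcm6 (chr1:128359706-128359865, minus strand): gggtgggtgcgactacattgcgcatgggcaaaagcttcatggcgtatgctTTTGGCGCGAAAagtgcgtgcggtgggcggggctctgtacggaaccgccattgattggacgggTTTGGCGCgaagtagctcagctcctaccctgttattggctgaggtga
Cdc6 (chr11:98907991-98908150, plus strand): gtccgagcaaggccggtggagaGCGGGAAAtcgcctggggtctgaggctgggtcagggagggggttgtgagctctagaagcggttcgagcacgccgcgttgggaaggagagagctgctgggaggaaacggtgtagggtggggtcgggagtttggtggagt
Pola1 (chrX:93632156-93632315, minus strand): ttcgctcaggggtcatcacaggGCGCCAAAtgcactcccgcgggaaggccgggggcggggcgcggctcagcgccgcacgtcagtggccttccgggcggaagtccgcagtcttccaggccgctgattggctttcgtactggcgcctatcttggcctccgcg
E2f8 (chr7:48881597-48881756, minus strand): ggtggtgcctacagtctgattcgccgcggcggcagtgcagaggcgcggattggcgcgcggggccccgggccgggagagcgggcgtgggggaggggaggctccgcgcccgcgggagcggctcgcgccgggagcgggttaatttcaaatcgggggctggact
Rrm2 (chr12:24708094-24708240, plus strand): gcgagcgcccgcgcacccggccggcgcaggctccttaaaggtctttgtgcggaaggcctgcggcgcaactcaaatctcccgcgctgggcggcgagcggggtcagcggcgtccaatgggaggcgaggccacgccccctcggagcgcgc
Each stretch is written 5′ to 3′ on the gene's strand and ends at the base before the start site, except that of Rrm2, which ends 14 bases before it. The Mcm5 matches begin 153 and 149 bases before the start site, those of Mcm6 110, 106 and 47 bases before it, and those of Cdc6 and Pola1 138 bases before it. The letters CCAAT were in 22 of 29 members against 41.1% of all genes with a window. The letters TTTGAA, part of an element of G2/M promoters, were in 6 of 29 members and in 16 of 22 G2/M genes with a window, against 20.2% of all genes with a window, a share like that of the members, while E2F letters were in 1 of those 22. A match describes the letters only and does not show a bound site.

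Among the roles, the helicase had the highest ratio of both sorted libraries over TBM. Mcm6 (ENSMUSG00000026355, chr1:128331590-128359664 in mm10, minus strand), a subunit of the ring, was at 287 CPM in LSK (265 to 310.4), 335 CPM in LK (322 to 349) and 77.7 CPM in TBM (70.7 to 85.1). It was thus high in both sorted libraries and low in TBM, with intervals that did not overlap between TBM and either of them. Mcm3, another subunit, was at 217 CPM in LSK, 232 CPM in LK and 51.04 CPM in TBM, a log2 ratio of 2.19 (2.01 to 2.37) for LK over TBM. Mcm2, Mcm4, Mcm5 and Mcm7 had log2 ratios of LK over TBM between 1.46 and 1.84. As a sum, the 6 genes stood at -0.24 (-0.31 to -0.17) for LSK over LK, 1.89 (1.82 to 1.96) for LK over TBM and 1.65 (1.56 to 1.73) for LSK over TBM, and on the reduced scale at -0.35, 1.33 and 0.99. All 6 were at least 2-fold higher in either sorted library than in TBM. They made up 32.9% of the UMIs of the 37 genes in LSK, 32.1% in LK and 16.7% in TBM. On the reduced scale these shares were 32.2% for LSK, 33.2% for LK and 16.1% for TBM.

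As a sum, the 4 licensing and firing genes, which include the licensing inhibitor Gmnn, had the lowest ratio of LSK over LK of all roles, -0.68 (-0.85 to -0.52). Cdc45 (ENSMUSG00000000028, chr16:18780447-18811987, minus strand), which joins the ring at firing, was at 21.6 CPM in LSK (15.8 to 28.8), 46.5 CPM in LK (41.5 to 51.9) and 18.3 CPM in TBM (14.97 to 22.1). Its log2 ratio of -1.11 (-1.59 to -0.66) for LSK over LK was the lowest of all members and the only one past 2-fold. However, it was -0.79 on the reduced scale and -0.81 at 1000 UMIs, where Dscc1 was lower at -1.01. Gins2, a GINS subunit, was at 42.2 CPM in LSK, 73.1 CPM in LK and 19.6 CPM in TBM, a ratio of -0.79 (-1.13 to -0.47) for LSK over LK. Gmnn encodes geminin, which blocks a second round of licensing, and it was at 78.3 CPM in LSK, 119 CPM in LK and 83.99 CPM in TBM. Its ratio of LK over TBM was 0.51 (0.35 to 0.67), and it was below 0 on the reduced scale. Cdc6, the loading factor, was at 22.96 CPM in LSK, 25.8 CPM in LK and 18.1 CPM in TBM.

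Among the synthesis genes, Pcna, the sliding clamp, was at 254 CPM in LSK (233 to 277), 307 CPM in LK (294 to 321) and 184 CPM in TBM (173 to 195). Rfc2, a subunit of the clamp loader, was at 291 CPM in LSK, 319 CPM in LK and 102 CPM in TBM. On the log2 scale LK over TBM was 1.65 for Rfc2 and 0.74 for Pcna. LSK over TBM was 1.51 for Rfc2 and 0.47 for Pcna, but -0.22 for Pcna on the reduced scale. Dscc1, part of an alternative clamp loader that acts in sister chromatid cohesion, was at 15.5 CPM in LSK, 25.1 CPM in LK and 5.80 CPM in TBM with a ratio of 2.11 (1.57 to 2.69) for LK over TBM, which was 1.83 at 1000 UMIs, 1.37 at 4000 UMIs and 1.32 without thinning. Prim1 and Pola1, of the primase and polymerase that start new strands, had ratios of 1.29 and 1.41, and the flap nuclease Fen1 had 0.68. The 6 synthesis genes together stood at 1.11 (1.04 to 1.18) for LK over TBM, or 0.55 on the reduced scale.

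Rrm2 stood furthest in the other direction. It encodes the regulated subunit of ribonucleotide reductase (ENSMUSG00000020649, chr12:24708241-24714146, plus strand) and was at 85.3 CPM in LSK (73.3 to 98.6), 140.2 CPM in LK (132 to 149) and 345 CPM in TBM (330.1 to 360.4). TBM was thus the highest library and LSK the lowest. Its log2 ratio was -0.72 (-0.95 to -0.49) for LSK over LK, -1.30 (-1.41 to -1.19) for LK over TBM and -2.02 (-2.24 to -1.80) for LSK over TBM. Rrm1, the other reductase subunit, was at 99.8 CPM in LSK, 137 CPM in LK and 75.5 CPM in TBM, and Tyms, which makes thymidylate, at 119 CPM in LSK, 146 CPM in LK and 76.6 CPM in TBM, so both were highest in LK. The 3 nucleotide genes made up 9.12% of the group's UMIs in LSK, 10.4% in LK and 23.6% in TBM. Without Rrm2 the sum of the other 36 genes was -0.26 (-0.30 to -0.23) for LSK over LK, 1.15 (1.12 to 1.19) for LK over TBM and 0.89 (0.85 to 0.93) for LSK over TBM.

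The repair and checkpoint genes held the member with the largest difference from TBM. Ung (ENSMUSG00000029591, chr5:114130386-114139323, plus strand), a uracil DNA glycosylase that removes uracil from DNA, was at 79.2 CPM in LSK (67.7 to 92.1), 107 CPM in LK (99.7 to 115) and 13.1 CPM in TBM (10.4 to 16.4). TBM was far below both sorted libraries, with a log2 ratio of 3.03 (2.69 to 3.39) for LK over TBM and 2.59 (2.19 to 2.999) for LSK over TBM. It was found in 13.03% of thinned LSK cells, 18.05% of LK cells and 2.32% of TBM cells, against 0.311% of the neutrophil-like S100a8/9-high cells of TBM, while before thinning the shares were 37.6% for LSK, 53.9% for LK and 5.76% for TBM. Tipin, a fork protection factor, was at 164 CPM in LSK, 226 CPM in LK and 98.7 CPM in TBM. Clspn, the adaptor that passes a stalled fork signal to Chek1, was at 22.96 CPM in LSK, 21.1 CPM in LK and 15.4 CPM in TBM, with 0.12 (-0.38 to 0.59) for LSK over LK, or -0.13 on the reduced scale. Exo1, Blm and Brip1, which process DNA ends and forks, were below 18 CPM in all 3 libraries. Rad51ap1, a DNA repair factor, Usp1, which removes ubiquitin from Pcna, and Dtl, which marks licensing factors for destruction, had 0.44, 0.71 and 1.38 for LK over TBM. The 9 genes together stood at 1.22 (1.13 to 1.30) for LK over TBM, or 0.58 on the reduced scale.

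The chromatin genes divided, and their sum for LK over TBM, 0.43 (0.36 to 0.51), was -0.13 on the reduced scale. Slbp, which binds the stem loop of histone mRNAs (ENSMUSG00000004642, chr5:33634952-33652574, minus strand), was at 188 CPM in LSK (170.0 to 207), 209 CPM in LK (198 to 219.9) and 257 CPM in TBM (244 to 270.2), so TBM was highest, with -0.30 (-0.40 to -0.19) for LK over TBM. Hells, a chromatin remodeller needed for DNA methylation, was at 82.9 CPM in LSK, 64.5 CPM in LK and 21.7 CPM in TBM with a ratio of 0.36 (0.10 to 0.62) for LSK over LK, which was the highest at this depth but only 0.038 at 4000 UMIs, where Casp8ap2 had 0.25. Chaf1b, a subunit of the histone chaperone CAF-1, was at 80.1 CPM in LSK, 68.7 CPM in LK and 22.02 CPM in TBM with 0.22 (-0.038 to 0.48). Relative to the median of all genes these ratios were only 0.15 and 0.012. Nasp and Uhrf1, a histone chaperone and a reader of hemimethylated DNA, had 1.31 and 0.73 for LK over TBM, and Ubr7, a histone ubiquitin ligase, had 0.84. Wdr76 was at 10.8 CPM in LSK, 15.5 CPM in LK and 18.1 CPM in TBM, with -0.75 (-1.47 to -0.087) for LSK over TBM. That value rests on 23 UMIs in LSK and was -0.028 without thinning, -0.086 at 1000 UMIs and -0.29 at 4000 UMIs.

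Of the regulators, E2f8, a repressor of E2F targets, was at 13.1 CPM in LSK, 18.8 CPM in LK and 26.1 CPM in TBM, with -0.47 (-0.82 to -0.13) for LK over TBM and -0.99 (-1.63 to -0.41) for LSK over TBM. Casp8ap2, which takes part in histone gene expression, was at 27.6 CPM in LSK, 28.2 CPM in LK and 16.2 CPM in TBM. E2f8 was thus highest and Casp8ap2 lowest in TBM.

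Replication genes outside the group were counted as well. The list held 55 genes that are not members, such as Orc, Pold and Rfc subunits, of which 54 passed the minimum in LSK over LK and in LK over TBM and 53 in LSK over TBM. In LSK over LK, 0 were at least 2-fold higher and 2 lower, beside 13.8% and 3.75% of all genes, with a median of -0.28. In LK over TBM, 27 were higher and 2 lower, beside 30.5% and 15.3% of all genes, with a median of 1.004. In LSK over TBM these were 15 and 2, beside 36.3% and 13.2%, with 0.75, so the upward share was below that of all genes. Relative to the median of all genes, the list sum was -0.48, 0.35 and -0.12 in these comparisons. The lowest ratios of LSK over LK were those of Recql4, Gins1 and Tk1. Recql4 had only 0.937 CPM in LSK and 3.33 CPM in LK, and its interval reached from -4.96 to 0.19. Gins1, a GINS subunit like Gins2, had 13.6 CPM in LSK and 30.7 CPM in LK, a ratio of -1.18 (-1.79 to -0.61). Tk1, a thymidine kinase, had 46.4 CPM in LSK and 88.8 CPM in LK, a ratio of -0.94 (-1.26 to -0.63). The highest were Pole, Cdc7 and Atad2, at 0.66 (0.057 to 1.23), 0.31 (-0.40 to 0.98) and 0.29 (-0.049 to 0.61). Against TBM, Cdca7, Chek1 and Timeless stood highest in LK, at 2.25 (2.04 to 2.46), 2.14 (1.47 to 2.87) and 1.998 (1.57 to 2.45). Pold2, Cdca7 and Chek1 stood highest in LSK, Pold2 at 1.63 (1.30 to 1.95). Fbxo5, an inhibitor of the anaphase-promoting complex, Asf1b, a histone chaperone, and Pold4 were the lowest in both, with LK over TBM at -1.61 (-1.88 to -1.34), -1.01 (-1.20 to -0.82) and -0.82 (-0.99 to -0.66).

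Among 13 E2F and G1/S genes, 0 were at least 2-fold higher and 1 lower in LSK than in LK, 0 and 5 in LK than in TBM, and 0 and 5 in LSK than in TBM. Of all genes, 13.8% were higher and 3.75% lower in LSK than in LK. The shares were 30.5% and 15.3% in LK over TBM, and 36.3% and 13.2% in LSK over TBM. E2f2, an activating E2F, was at 3.75 CPM in LSK, 3.33 CPM in LK and 54.3 CPM in TBM. All 5 cyclin-dependent kinase inhibitors had ratios of LSK over LK above 0, and Cdkn1c, found in resting stem cells, was the 1 past 2-fold, with 32.8 CPM in LSK and 3.91 CPM in LK. Against TBM, 2 of the 5 were at least 2-fold higher and 3 lower in LK, and 2 and 2 in LSK.

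Genes of G2 and mitosis went the same way as the replication genes in LSK over LK, but not in the comparisons with TBM. Summed over 25 genes, LSK cells held 1.81, LK cells 2.33 and TBM cells 4.22 UMIs in 2000. On the log2 scale LSK over LK was -0.36 (-0.44 to -0.29) for this sum. The ratio of the replication sum to the G2/M sum was 3.69 in LSK, 3.48 in LK and 0.997 in TBM. Of the 25, 0 were at least 2-fold higher and 7 lower in LK than in TBM, beside 30.5% and 15.3% of all genes. In LSK over TBM these were 0 and 12, beside 36.3% and 13.2%, and in LSK over LK 0 and 2, beside 13.8% and 3.75%. Mki67, a proliferation marker, had 32.3 CPM in LSK, 30.1 CPM in LK and 97.1 CPM in TBM, so TBM was highest. At least 10 UMIs of the G2/M genes were held by 5.34% of LSK cells, 5.68% of LK cells and 16.6% of TBM cells. Cells with at least 10 UMIs of the replication genes rarely also had 10 of the G2/M genes in the sorted libraries, 6 of 302 in LSK and 22 of 1282 in LK. In TBM these were 194 of 446.

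Cells were next divided by lineage markers, in UMIs per 10000 UMIs of the cell and in a fixed order in which the first rule met wins. The classes are ranges of marker content, not cell types, and are named by the marker. In the order applied, the thresholds were globins 1000, Fcnb 10, S100a8 plus S100a9 500, Vpreb3 5, Ms4a1 5, Pf4 5, Rhd 1, Car1 5, Elane 20 and F13a1 5, and then Procr 1 and Flt3 1. Of LSK cells, 194 were Procr+Flt3-, a marker state of stem cells, 106 were Procr+Flt3+, 274 were Procr-Flt3+, a state of multipotent progenitors, and 443 met no rule. LK held 1306 Elane-high cells (granulocyte progenitors), 331 Car1-high and 69 Rhd-positive cells (erythroid), 113 Pf4-high cells (megakaryocyte lineage), 371 Procr-Flt3+ cells, 61 Procr+Flt3- cells, 32 Procr+Flt3+ cells and 1153 without a marker. TBM held 448 globin-high, 163 Fcnb-high, 1423 S100a8/9-high, 980 Vpreb3-high, 300 Ms4a1-high, 51 Rhd-positive, 76 Elane-high, 210 F13a1-high and 54 Procr-Flt3+ cells and 490 without a marker. Classes under 30 cells after thinning got no value, among them the 25 F13a1-high cells of LK, where the Elane rule comes first. Many cells lay within a factor of 2 of a threshold. For Elane in LK these were 126 cells under it and 168 over it, and in TBM 158 under and 106 over for Fcnb and 13 under and 19 over for globin.

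Within LSK, replication genes were lowest in Procr+Flt3- cells. The mean per cell was 7.50 (7.18 to 7.83) in Procr-Flt3+ cells, 8.12 (7.86 to 8.39) in cells without a marker, 4.26 (3.88 to 4.68) in Procr+Flt3+ cells and 3.28 (3.03 to 3.54) in Procr+Flt3- cells. At least 10 UMIs were held by 32.8% (27.3 to 38.8) of Procr-Flt3+ cells, 37.2% of cells without a marker, 11.3% of Procr+Flt3+ cells and 7.73% (4.39 to 12.4) of Procr+Flt3- cells. Procr-Flt3+ over Procr+Flt3- cells gave a log2 ratio of 1.19 (1.06 to 1.32) for the sum of all 37 genes. Of 25 members with 20 UMIs or more, 20 were at least 2-fold higher and 0 lower, beside 5.97% and 4.87% of all genes, but a gene passes this minimum more easily where it is high. Among those 25, Nasp had the highest ratio, 2.06 (1.08 to 3.20), and Casp8ap2 the lowest, -0.36 (-1.74 to 1.03). The sums of the helicase (1.23), licensing and firing (1.14), synthesis (1.14), nucleotide (1.28), repair (1.37) and chromatin genes (1.12) were all past 2-fold, while that of the 2 regulators was 0.087 (-1.05 to 1.27). In LK the same contrast gave 0.92 (0.74 to 1.11) for the whole group. Cdkn1c went the other way, with 10.9 CPM in Procr-Flt3+ and 79.9 CPM in Procr+Flt3- cells. Depth moved with these classes, with a median of 10766.5 UMIs in Procr-Flt3+ and 7338 in Procr+Flt3- cells. The rule itself depends on depth, since 1 marker UMI meets a threshold of 1 per 10000 only in cells of up to 10000 UMIs. Among cells between 7000 and 11000 UMIs, the means were 5.20 in 111 Procr-Flt3+ cells and 2.91 in 97 Procr+Flt3- cells, a smaller gap. That range spans the step at 10000 UMIs, and the median depths in it were still 8804 and 8054 UMIs. The part of depth and of the rule in the remaining gap was not tested. Cells without a marker held 4.96 in that range (147 cells), a little below the Procr-Flt3+ cells, and Procr+Flt3+ cells 3.87 (69 cells).

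The same marker states could be compared between LSK and LK. In Procr+Flt3- cells the sum was 3.28 per cell in LSK and 4.28 in LK, which is -0.38 (-0.59 to -0.17) on the log2 scale. Among the 19 members that passed, Hells was at least 2-fold higher and Mcm4 and Gmnn lower, so 1 and 2 genes, beside 6.46% and 3.79% of all genes. In Procr-Flt3+ cells it was 7.50 in LSK and 8.09 in LK, which is -0.11 (-0.19 to -0.028). Cdc45 was the lowest member there, at -1.53 (-2.63 to -0.55), and the 1 member of 33 past 2-fold, beside 5.47% higher and 2.4% lower among all genes. These cells are part of the same 2 libraries, so this is not a second observation of its low ratio. Cells without a marker stood at 8.12 in LSK and 8.50 in LK.

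Within LK, the Rhd-positive erythroid progenitors had the most replication transcripts, 10.2 (9.45 to 10.98) per cell, and Procr+Flt3- cells the fewest, 4.28 (3.78 to 4.83). The Rhd-positive cells were also the deepest class of LK, with a median of 26878 UMIs, and the part of depth in their rank was not tested. The deepest of 4 equal parts of the cells without a marker held 10.2 (9.86 to 10.6) at a median of 17336 UMIs. Car1-high cells stood at 5.60 (5.35 to 5.87), Pf4-high cells at 7.89 (7.38 to 8.43), Elane-high cells at 8.46 (8.31 to 8.62), Procr-Flt3+ cells at 8.09 (7.80 to 8.38) and cells without a marker at 8.50 (8.33 to 8.67). The intervals of Pf4-high, Procr-Flt3+ and Elane-high cells overlapped. Car1-high over Elane-high cells gave -0.60 (-0.67 to -0.52), with 1 of 37 members at least 2-fold higher and 12 lower, beside 13.9% and 12% of all genes. Rrm2 was at 35.1 CPM in Car1-high and 204 CPM in Elane-high cells. Hells was at 16.8 CPM in Car1-high and 60.1 CPM in Elane-high cells, and Gmnn at 60.98 CPM in Car1-high and 156 CPM in Elane-high cells. These members were thus lower in Car1-high cells. Mcm2 and Mcm4 differed by only -0.25 and -0.17 on the log2 scale. The 1 higher member was Blm, at 1.60 (0.66 to 2.52). Car1-high cells were also shallower, with a median of 6851 UMIs against 19932 in Elane-high cells. The order turned round between the parts of the classes whose median depths were alike. With each class divided into 4 equal parts by depth, the deepest part of the Car1-high cells held 7.73 (7.14 to 8.36) at a median of 14105.5 UMIs, and the shallowest part of the Elane-high cells 6.43 (6.15 to 6.71) at a median of 14171 UMIs. This sets opposite ends of the classes against each other, so it does not rank the whole classes at like depth.

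**Figure D3:**
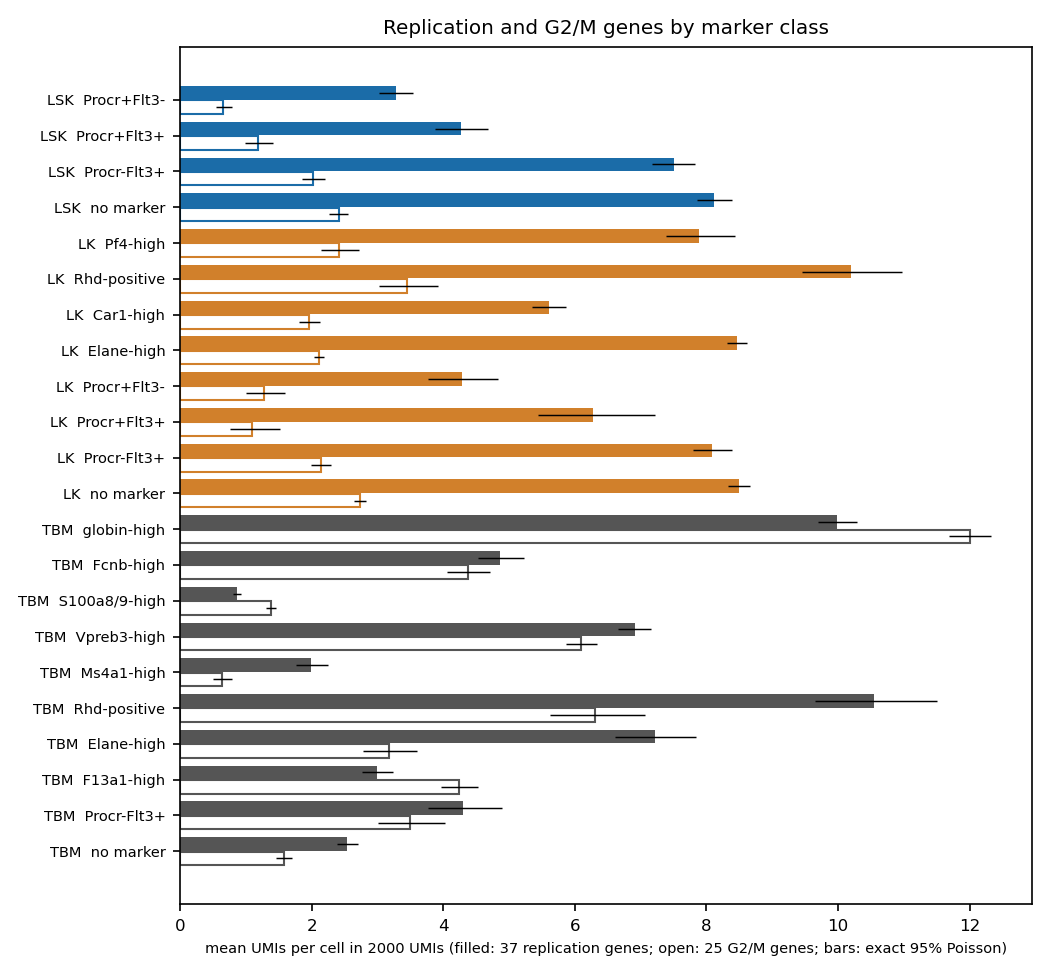
Mean UMIs per cell in 2000 UMIs (horizontal axis) of the 37 replication genes (filled bars) and of 25 G2/M genes (open bars) by marker class in LSK, LK and TBM, with exact 95% Poisson intervals. In LSK and LK the filled bars are longer in every class, while in TBM the globin-high, S100a8/9-high and F13a1-high classes have longer open bars.

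Total marrow was a mixture of classes far apart. Rhd-positive cells stood at 10.5 (9.64 to 11.5), globin-high erythroblasts at 9.99 (9.70 to 10.3), Elane-high cells at 7.21 (6.62 to 7.85), Vpreb3-high B cell precursors at 6.91 (6.66 to 7.16), Fcnb-high neutrophil precursors at 4.87 (4.53 to 5.22) and Procr-Flt3+ cells at 4.30 (3.76 to 4.90). F13a1-high cells stood at 2.99 (2.76 to 3.23), cells without a marker at 2.54 (2.39 to 2.71), Ms4a1-high B cells at 1.99 (1.76 to 2.25) and S100a8/9-high neutrophils at 0.870 (0.812 to 0.931). Even in the last class, 44 of 964 cells had at least 10 UMIs of the G2/M genes and 8 had at least 10 of the replication genes. Globin-high cells held 36.1% and Vpreb3-high cells 24.1% of the group's UMIs in TBM. The thinning left out 56.1% of Vpreb3-high, 55.3% of Ms4a1-high and 32.3% of S100a8/9-high cells, so these means rest on their deeper cells. In Vpreb3-high cells the sum was uneven, with a median of 2 and a 90th percentile of 22 UMIs. It was 10.99 in cells with at least 1 UMI per 10000 of Igll1 and 5.80 in the others. Igll1 is a surrogate light chain gene of early B cell precursors, and this division was chosen after the values were seen. The means rest on 92 of 105 and 338 of 875 cells, and the median depths were 5641 and 1889 UMIs. In 4 equal parts by depth, Vpreb3-high cells held 1.51, 1.62, 9.94 and 14.6 at medians of 2149.5, 2551, 3965 and 7831 UMIs. The part of depth in the Igll1 division was not tested.

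Along the neutrophil lineage in TBM, Fcnb-high over S100a8/9-high cells gave 2.48 (2.34 to 2.63) for the sum. All 22 members that passed the minimum were at least 2-fold higher, beside 21.8% higher and 14.9% lower among all genes, and 15 members did not pass. As in the LSK contrast, a gene passes this minimum more easily where it is high, while the sum holds all 37 genes. Mcm3 was at 62.1 (37.9 to 95.9) CPM in Fcnb-high and 4.15 (1.79 to 8.18) CPM in S100a8/9-high cells. Pcna was at 227 (178 to 285) CPM in Fcnb-high and 30.6 (23.3 to 39.5) CPM in S100a8/9-high cells. Rrm2 was at 351 (289 to 422) CPM in Fcnb-high and 65.9 (54.9 to 78.4) CPM in S100a8/9-high cells. For these 3 genes the intervals of the classes did not overlap. Fcnb-high cells were deeper, with a median of 12324 UMIs against 3045 in S100a8/9-high cells. The Elane-high class was present in 2 libraries, and its sum was 7.21 per cell in TBM and 8.46 in LK. The members' ratio of TBM over LK in that class was -0.23 (-0.36 to -0.11), with the helicase at -0.51, the chromatin genes at 0.31 and the G2/M genes at 0.59. Of all genes, 11% were at least 2-fold higher and 12.4% lower there, and of the 37 members 1 and 6. Wdr76 was the higher one. Clspn was the lowest of the members with a UMI in both libraries, at -1.88 (-7.20 to 0.65). Casp8ap2 had no UMI in these TBM cells, was entered at 3 UMIs and so was not among the members counted as lower.

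Among the LSK classes the helicase held between 31.1% and 34.5% of the group's UMIs. The nucleotide genes held 5.75% (3.79 to 8.32) in Procr+Flt3+ cells and 9.59% (8.65 to 10.60) in cells without a marker. In TBM the helicase held 25.9% in Elane-high, 22.1% in Rhd-positive, 19.2% in Vpreb3-high, 15.1% in Fcnb-high and 14.2% in globin-high cells. In LK it held 31.4% in Elane-high, 27.3% in Rhd-positive, 33.9% in Car1-high and 36.4% in Procr+Flt3- cells. Elane-high and Rhd-positive cells thus had a lower helicase share in TBM than in LK, with intervals that overlapped for the Rhd-positive but not for the Elane-high cells. The nucleotide genes held 35.7% of the UMIs in globin-high cells, 22.4% in Fcnb-high cells and 18.3% in Vpreb3-high cells, against 11.8% in Elane-high and 6.91% in Car1-high cells of LK. Rrm2 was at 1355 CPM in globin-high, 615 in Rhd-positive, 415 in Vpreb3-high and 351 CPM in Fcnb-high cells of TBM. Globin-high cells held 59.7% of all Rrm2 UMIs of TBM, 40.5% of those of Slbp, 51.6% of those of E2f8 and 28.4% of those of Mcm6. Ung was at 10.1 CPM in globin-high and 26.7 CPM in Vpreb3-high cells, against 128 CPM in Elane-high cells of LK. Hells was at 5.62 CPM in globin-high and 67.4 CPM in Vpreb3-high cells, against 104 CPM in LSK cells without a marker.

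**Figure D4:**
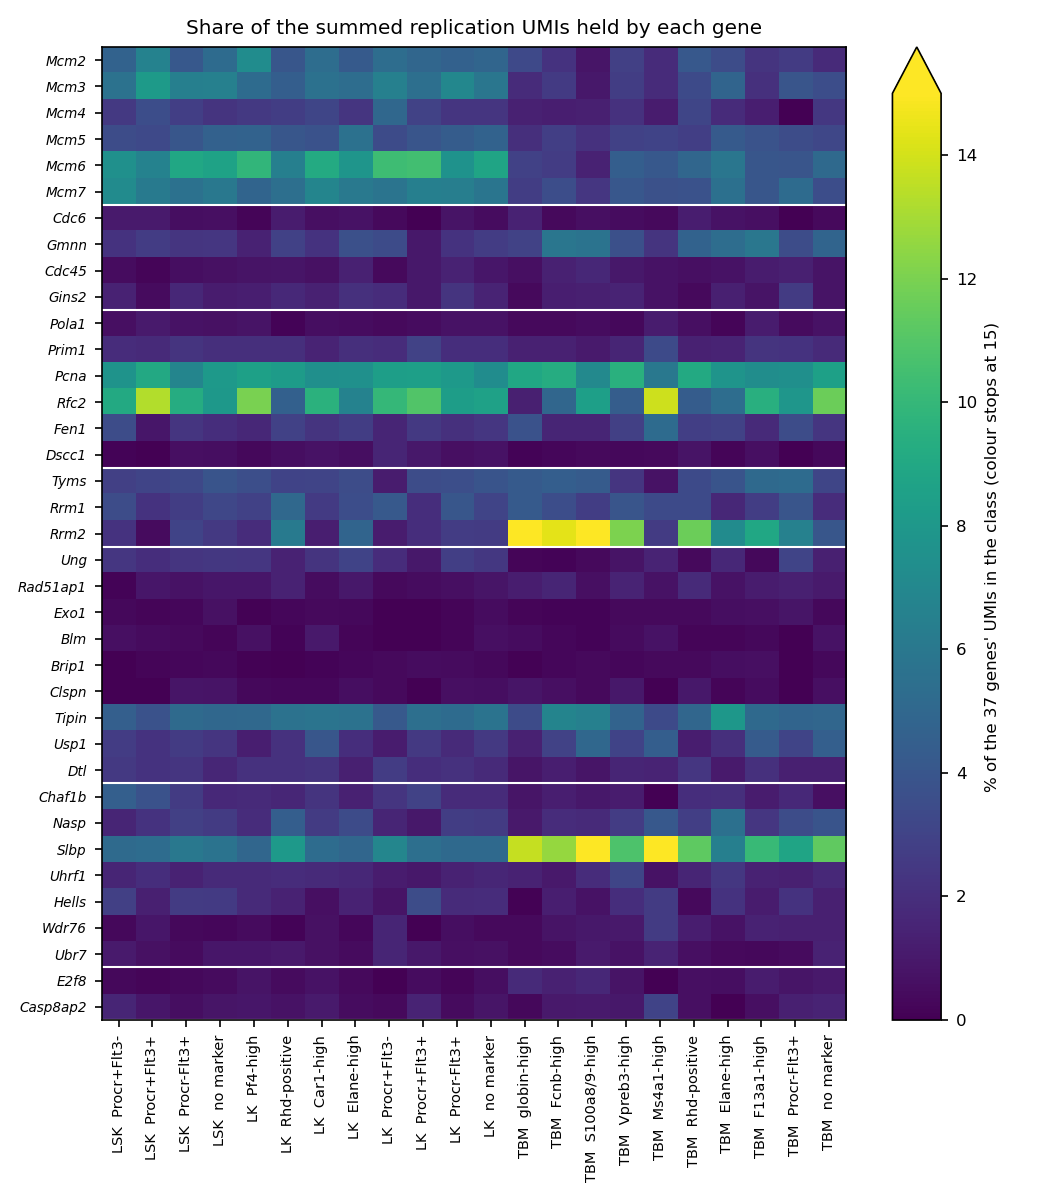
Share in % (colour, which stops at 15) of the summed UMIs of the 37 genes that each gene (rows, grouped by role) holds in each marker class (columns). The helicase rows are brighter in LSK and LK columns, and Rrm2 and Slbp are brightest in TBM columns, where nucleotide genes hold 35.7% of the UMIs of globin-high cells.

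Since globins crowd out other transcripts in erythroblasts, these were compared on the reduced scale. On it 300 of 448 globin-high, 240 of 980 Vpreb3-high and 68 of 69 Rhd-positive LK cells still held 2000 UMIs and were used. The globin-richest cells, which keep the fewest other UMIs, were low in replication transcripts, so the ratios below hold for the cells kept, and the effect of those left out was not tested. Against the Rhd-positive cells of LK, globin-high cells had a log2 ratio of 1.06 (0.96 to 1.15) for the group, -0.085 (-0.26 to 0.10) for the helicase, 2.61 (2.36 to 2.87) for the nucleotide genes and 3.18 (3.02 to 3.35) for the 25 G2/M genes. Of 35 members that passed, 12 were at least 2-fold higher and 4 lower, beside 26.5% and 33.4% of all genes. Rrm2 at 3.30 (2.94 to 3.69), E2f8 at 2.61 (1.60 to 3.84) and Slbp at 1.98 (1.65 to 2.33) were among the higher, and Hells at -1.56 (-2.60 to -0.47), Nasp at -1.53 (-2.06 to -0.99), Ung at -1.46 (-2.45 to -0.43) and Gins2 at -1.20 (-2.22 to -0.11) were the lower. Against Vpreb3-high cells of the same library, the group stood at 1.22 (1.16 to 1.28), with 14 members at least 2-fold higher and 3 lower of 37, beside 18.8% and 41.5% of all genes. Cdc6 at 2.61 (1.88 to 3.44), E2f8 at 2.52 (1.96 to 3.12) and Rrm2 at 2.32 (2.17 to 2.47) were the highest there and Hells at -1.84 (-2.63 to -1.10), Gins2 at -1.43 (-2.18 to -0.72) and Brip1 at -1.11 (-2.33 to 0.034) the lowest.

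Globin content, taken as a scale within this class after its values were seen, gave different courses for different members. The values below are per 10000 UMIs left after removing the abundant genes, summed over all cells of a range without thinning. Deeper cells thus weigh more, and cells left out of the ratios above are included. The ranges were 1000 to 3000, 3000 to 5000, 5000 to 7000 and 7000 or more globin UMIs per 10000. They held 32, 69, 221 and 126 cells, and the 37 genes held 191, 212, 134 and 8.97 UMIs per 10000 there. The helicase held 41.2, 35.9, 13.03 and 0.775. Rrm2 held 33.5, 51.5, 42.4 and 2.07. In the range from 5000 to 7000 the helicase was thus well below its level in the first range, while Rrm2 was above its own, with intervals of 40.8 to 44.1 and 31.2 to 35.8. The G2/M genes held 119, 164, 230.3 and 85.9, so in the last range they were well above the sum of the replication genes. In globin-high cells 120 of 191 cells with at least 10 replication UMIs also had 10 G2/M UMIs, and in Vpreb3-high cells 58 of 112, against 0 of 25 in Fcnb-high cells. The G2/M level differs between these classes too, and its part in these overlaps was not tested.

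**Figure D5:**
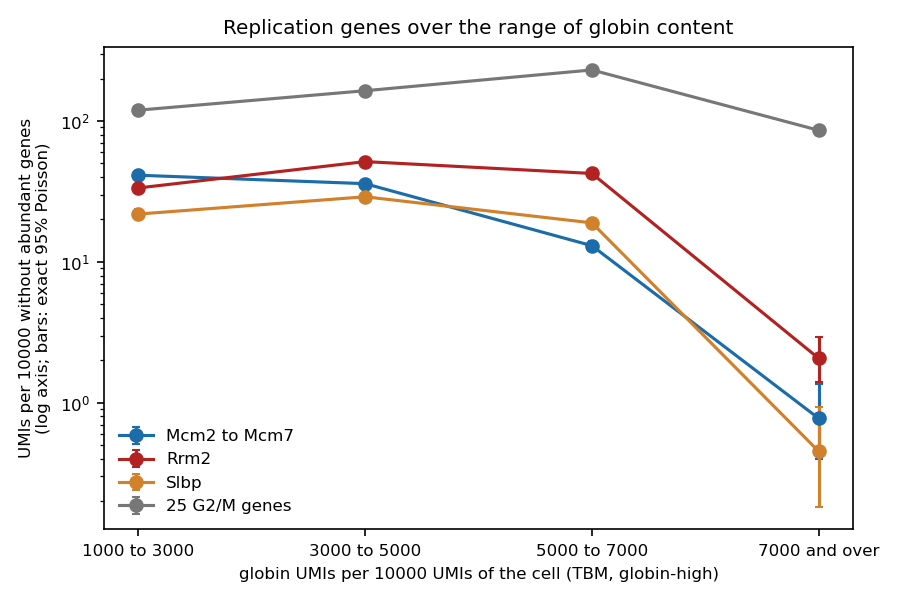
UMIs of Mcm2 to Mcm7, Rrm2, Slbp and 25 G2/M genes in globin-high TBM cells (log axis), with exact 95% Poisson intervals. Values are per 10000 UMIs left after removing the abundant genes, without thinning, by globin UMIs per 10000 UMIs of the cell. The helicase line falls from the second range on and Rrm2 from the third, and G2/M genes peak at 230.3 in the third range.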

How the data were processed

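Per the labels' protocols, droplet libraries of transcript 3′ ends were made with version 2 reagents of 10x Genomics and read on an Illumina NovaSeq. The submitters' processing notes name Cell Ranger 4.0.0 and the mm10 build, without settings. The authors deposited unnormalized matrices of whole-number UMI counts, with genes against barcodes. How the barcodes were selected is not given in the sources used here. Tags of this kind mark transcript 3′ ends, so levels are not per length and genes were not ranked by level.

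A barcode was kept if it held 200 genes or more and no more than 10% mitochondrial UMIs. Doublets called by Scrublet (scanpy 1.11.5, automatic threshold) were removed: 3 in LSK, 3 in LK and 73 in TBM (0.280%, 0.0866% and 1.70%). The caller thus marked few cells. Each cell was thinned once to 2000 UMIs with numpy 2.4.6, and sums over cells were compared, since cells are not replicates. A gene was counted at 20 or more UMIs over both groups. The call is a fold of 2. Intervals were computed with scipy 1.17.1. They cover counting error only. For fold calls and medians over genes, a count of 0 in 1 group was entered as 3, for members and for all genes. Such a gene got no interval for its ratio. Cell classes follow marker thresholds, in a fixed order.

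Genes named are, per comparison, the 3 lowest and 3 highest members and outside replication genes, and the member of each role with most UMIs. Others named, and the divisions by Igll1, globin and further markers, were chosen after values were seen. Members, lists and thresholds were chosen with earlier results of these data known. Lists outside the group are 55 replication, 13 E2F and G1/S, 25 G2/M and 5 inhibitor genes. The reduced scale thins the same way after removing the abundant genes. Statistics were tested on simulated data. Gene coordinates are those of the mouse annotation used here (GENCODE, build GRCm38, equal to mm10), which held 32235 of the 32285 gene IDs.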

Additional observations from a re-analysis of the deposited data

How the results depend on the processing

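No paired analysis was possible because each group is 1 library, and for the same reason no library could be left out. LSK over LK stayed below 0 and LK over TBM above 0 under every alternative run. LSK over TBM was -0.012 with abundant genes out of the totals, where the main value was 0.67, and the cause was not tested. On that scale LK over TBM was 0.30, Fcnb-high over S100a8/9-high 2.08, and 13 (LK over TBM) and 10 (LSK over TBM) members were past 2-fold, against 21 and 17. Relative to the median of all genes, the 3 library ratios, in the order LSK over LK, LK over TBM, LSK over TBM, were -0.49, 0.49 and 0.016, with 2, 13 and 9 members past 2-fold, -0.67 for Car1-high over Elane-high and 2.28 for Fcnb-high over S100a8/9-high. Shares of all genes past 2-fold are not given beside these counts or those of the reduced scale. Thinning to 1000 UMIs gave 1.25 (LK over TBM), 0.98 (LSK over TBM) and 2.68 for Fcnb-high over S100a8/9-high. Thinning to 4000 UMIs, which keeps fewer TBM cells, gave -0.33, 0.53 and 0.21 in the same order, the last with 9 members past 2-fold, and 2.03 for Fcnb-high over S100a8/9-high. Without thinning these were -0.16, 0.70, 0.55 and 2.10, and Car1-high over Elane-high was -0.36. Past 2-fold in LSK over LK stood 0 members at 4000 UMIs, without thinning, without the cell filter or with called doublets kept, against 1. Halving the class thresholds gave 0.87 for Procr-Flt3+ over Procr+Flt3-, and doubling them gave 2.72 for Fcnb-high over S100a8/9-high. In alternatives added after seeing the data, removing the expected number of doublets gave 0.90 (LK over TBM) and 0.60 (LSK over TBM), and another thinning seed gave -0.52 for Car1-high over Elane-high. With cells meeting exactly 1 rule, Fcnb-high over S100a8/9-high had no value. The other 57 of these values lay within the counting interval, or for counts within 1.5 times. Of single genes and classes, 242 lay within it and 153 outside.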

Other observations

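Further divisions within the marker classes were made after the values were seen, and they are given as mean UMIs of the 37 genes per cell in 2000 UMIs. In LSK, Procr+Flt3- cells with at least 3 Procr UMIs per 10000 held 1.89 (1.55 to 2.29), against 4.10 (3.497 to 4.78) in those with 2 to 3 and 3.75 (3.38 to 4.16) in those with fewer than 2, so there was no steady order with Procr content. Procr-Flt3+ cells of LSK with at least 1 UMI per 10000 of Dntt, a gene of lymphoid progenitors, held 6.60 (6.05 to 7.19), and those below held 7.87 (7.48 to 8.28). In LK, Elane-high cells with at least 2 UMIs per 10000 of the monocyte-lineage gene F13a1 held 9.43 (9.10 to 9.78), and those below held 8.15 (7.98 to 8.33). With rising Elane content, at fewer than 50, 50 to 100, 100 to 150 and 150 or more UMIs per 10000, Elane-high cells of LK held 8.87, 9.03, 8.33 and 7.79. In TBM, F13a1-high cells with at least 20 UMIs per 10000 of the monocyte gene Ly6c2 held 3.84 (3.52 to 4.18), and those below held 1.30 (1.05 to 1.60). Vpreb3-high cells with at least 1 Mki67 UMI per 10000 held 13.7 (13.04 to 14.4), and those below held 4.20 (3.97 to 4.43). Median depths were 6376 and 1869 UMIs in these Mki67 parts, and 7369 and 5439 UMIs in the Ly6c2 parts. The part of depth in these divisions was not tested.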
